A study of Mus musculus with 6 samples.

Results

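Matrix proteases and their inhibitors in mDCT15 cells were taken by gene symbol. The set held the ADAM, ADAMTS, ADAMTSL, MMP and TIMP families, the plasminogen activators *Plau* and *Plat*, the urokinase receptor *Plaur*, the serpins named Serpine and the collagen chaperone *Serpinh1*. The symbols matched 57 of the 20624 genes in the table. The study used mDCT15 as a mouse cell model of the distal convoluted tubule. RNA of 3 wild type and 3 *Pkd1*-/- samples, titled as biological replicates and made into libraries after removal of ribosomal RNA, was sequenced. The *Pkd1*-/- cells were made by CRISPR-Cas9 editing, whereas the genotype field of their labels reads PKD1 knockdown, and no treatment is named for either group. Whether the edited cells are a single clone is not given in the sources used here. The value used for each gene is the authors' mean normalized count, a single mean over the 6 samples of both genotypes. The other numeric columns of the table hold the authors' own comparison of the genotypes and were not used here. The genotypes are therefore not compared, no value has a replicate error, and a mean can come from both genotypes alike or mostly from either of them. The depth of each sample is unknown. Because no spread is given, an order between genes with close values cannot be judged.

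Extracellular matrix is cut by metalloproteinases that hold a zinc ion in the active site. ADAMs are membrane proteins that mostly release the outer parts of other membrane proteins, ADAMTS enzymes are secreted and cut proteoglycans, procollagens and other matrix proteins, and MMPs cut collagens and many other substrates. TIMPs bind the active site of these enzymes. Urokinase (*Plau*) and tissue plasminogen activator (*Plat*) are serine proteases that turn plasminogen into plasmin, and *Serpine2* encodes a serpin that inhibits them. In the kidney these genes are mostly studied in tubular injury, fibrosis and cyst growth.

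The zinc site was searched for as a run of 11 residues, which starts with histidine and glutamate and holds a histidine at the fifth place, a glycine at the eighth and a histidine or aspartate at the last. The search used the translated canonical transcript of each gene in GENCODE on GRCm39. Of 21616 such coding sequences, 0.328% held the site, and with asparagine or serine allowed in place of the glycine 0.370% held it. The wider form was added after the first search had missed 6 ADAMTS genes. The site was found in 10 of the 16 ADAM members, in all 15 ADAMTS members in the wider form, in all 12 MMP members and in 0 of the 5 ADAMTSL members. The coding stretches below are those of *Adam12* and of the 3 members with the highest level in each enzyme family, because they show the site that the enzymes share. The capitals mark the codons of the 3 zinc-binding residues, each of them a histidine here. The stretches of *Adam12* (chr7:133562887-133562919, minus strand), *Adam9* (chr8:25480342-25480374, minus strand), *Adam15* (chr3:89252087-89252119, minus strand), *Mmp11* (chr10:75762765-75762797, minus strand), *Mmp15* (chr8:96095213-96095245, plus strand) and *Mmp28* (chr11:83335747-83335779, minus strand) each lie in a single exon. Those of *Adam10* (chr9:70661578-70668867, plus strand), *Adamts1* (chr16:85596079-85596433, minus strand), *Adamts5* (chr16:85674903-85684714, minus strand) and *Adamts4* (chr1:171080779-171081484, plus strand) span an exon junction. All coordinates are GRCm39.
Adam12: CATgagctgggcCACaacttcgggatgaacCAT
Adam9: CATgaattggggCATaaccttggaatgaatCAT
Adam10: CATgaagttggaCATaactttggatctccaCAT
Adam15: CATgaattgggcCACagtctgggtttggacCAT
Adamts1: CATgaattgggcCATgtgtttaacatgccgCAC
Adamts5: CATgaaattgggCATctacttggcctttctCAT
Adamts4: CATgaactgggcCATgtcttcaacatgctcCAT
Mmp11: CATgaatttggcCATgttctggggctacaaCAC
Mmp15: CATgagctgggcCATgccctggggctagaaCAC
Mmp28: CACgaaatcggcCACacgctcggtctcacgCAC

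In these 10 genes the glycine form was found in 8, and *Adamts1* and *Adamts4* have an asparagine codon at the eighth place. The same holds for *Adamts9*, *Adamts15* and *Adamts20*, while *Adamts8* has a serine codon. *Adamts5* has the glycine form. A match is a description of these letters and shows nothing of enzyme activity in the cells.

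Of the 57 members, 38 (66.7%) had a mean normalized count of at least 10, beside 66.5% of all genes in the table and 85.3% of the 13862 protein-coding genes. A mean of at least 100 was found for 25 members (43.9%), beside 50.3% of all genes and 72.9% of the protein-coding genes. A mean of at least 1000 was found for 11 members (19.3%), beside 20.9% of all genes and 31.0% of the protein-coding genes. All members are protein-coding, so the last of these sets is the closer one. The median of the members was 53.6, beside 104.5 for all genes and 474 for the protein-coding genes. All 57 members together held 0.297% of the summed mean of the table, and the 5 members with the highest means made up 58.2% of the members' summed mean. The 3 members with a mean under 1 were *Adam30*, *Mmp10* and *Mmp14*.

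**Figure D1:**
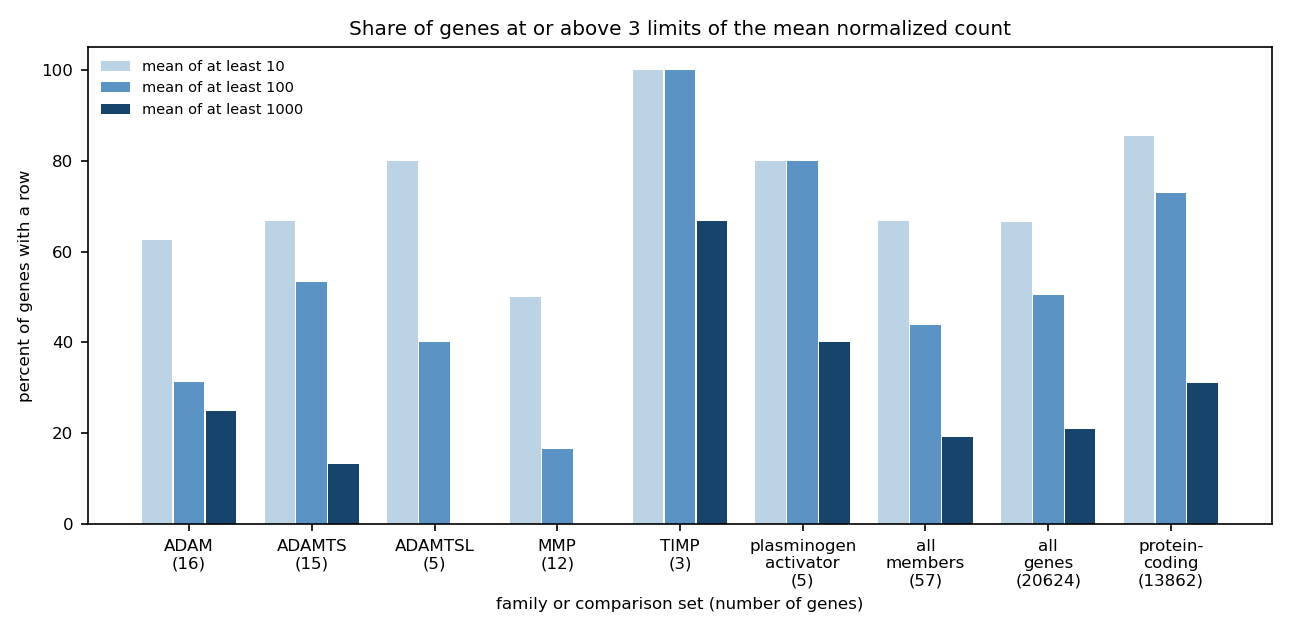
Percent of genes with a mean normalized count of at least 10, 100 and 1000 (bars, linear axis from 0) in each family, in all 57 members, in all 20624 genes and in the 13862 protein-coding genes; numbers of genes are in brackets and *Serpinh1*, alone in its group, is not drawn. The TIMP bars are the highest (100% at 100) and the MMP bars the lowest at 100 (16.7%) of the families.

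Levels of different genes are compared below per length, as the mean normalized count per kilobase of exon, with the exons of all transcripts of a gene merged. Long untranslated exons lower this level, and the text gives another length beside a ratio where the value moved by more than 1.5 times. Percentiles are those among the protein-coding genes of the table. Counts of genes above or below a limit, highest and lowest means, and the means of neighbours and markers are not corrected for length. Such raw means also depend on the length of the gene's transcripts.

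The ADAM family was carried by its widely expressed sheddases. *Adam9* had a mean of 3019 and a level of 694 per kilobase, at percentile 95.5. *Adam10*, the sheddase of Notch and cadherins, had a mean of 2809 and 504 per kilobase. *Adam15* had a mean of 2290 and 288 per kilobase, and *Adam17*, which releases TNF and ligands of the EGF receptor, had a mean of 1356 and 159 per kilobase. These 4 genes together held 97.3% of the summed level per kilobase of the 16 ADAM members.

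*Adam12* (ENSMUSG00000054555, chromosome 7 from 133484928 to 133833875, minus strand) encodes a sheddase known to cut IGF-binding proteins, and it came next in the family. Its mean over both genotypes was 109, and its level of 10.3 per kilobase was at percentile 22.9. The merged exons of *Adam12* span 10573 bases. The level of *Adam9* was 67.5 times that of *Adam12*, or 29.1 times with coding length. *Adam1a* (10.1 per kilobase) and *Adam8* (9.04 per kilobase) had levels close to that of *Adam12*, but with coding length *Adam12* (40.1 per kilobase) stood apart from *Adam1a* (14.9) and *Adam8* (16.9).

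The ADAM members without a zinc site were *Adam4*, *Adam5*, *Adam11*, *Adam22*, *Adam23* and *Adam32*. Of these, *Adam11*, *Adam22* and *Adam23* are known as ADAMs without protease activity, with roles at neuronal surfaces. A mean of at least 100 was found for 5 of the 10 members with the site and for 0 of the 6 without it. The shares at this limit were 50.3% of all genes and 72.9% of the protein-coding genes. A mean of at least 10 was found for 8 of these 10 members and for 2 of these 6, beside 66.5% and 85.3%. The highest mean among those 6 was 42.5, for *Adam11*, and the lowest was 1.05, for *Adam23*, which also had the lowest level of all 57 members with merged exons (0.0555 per kilobase). With coding length *Adam30* (0.2998 per kilobase) was below *Adam23* (0.407 per kilobase). The lowest mean of the family was that of *Adam30*, at 0.658. In all, 6 of the 16 ADAM members had a mean under 10. A further 18 annotated ADAM genes, many of them known from testis, had no row among those analysed.

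**Figure D2:**
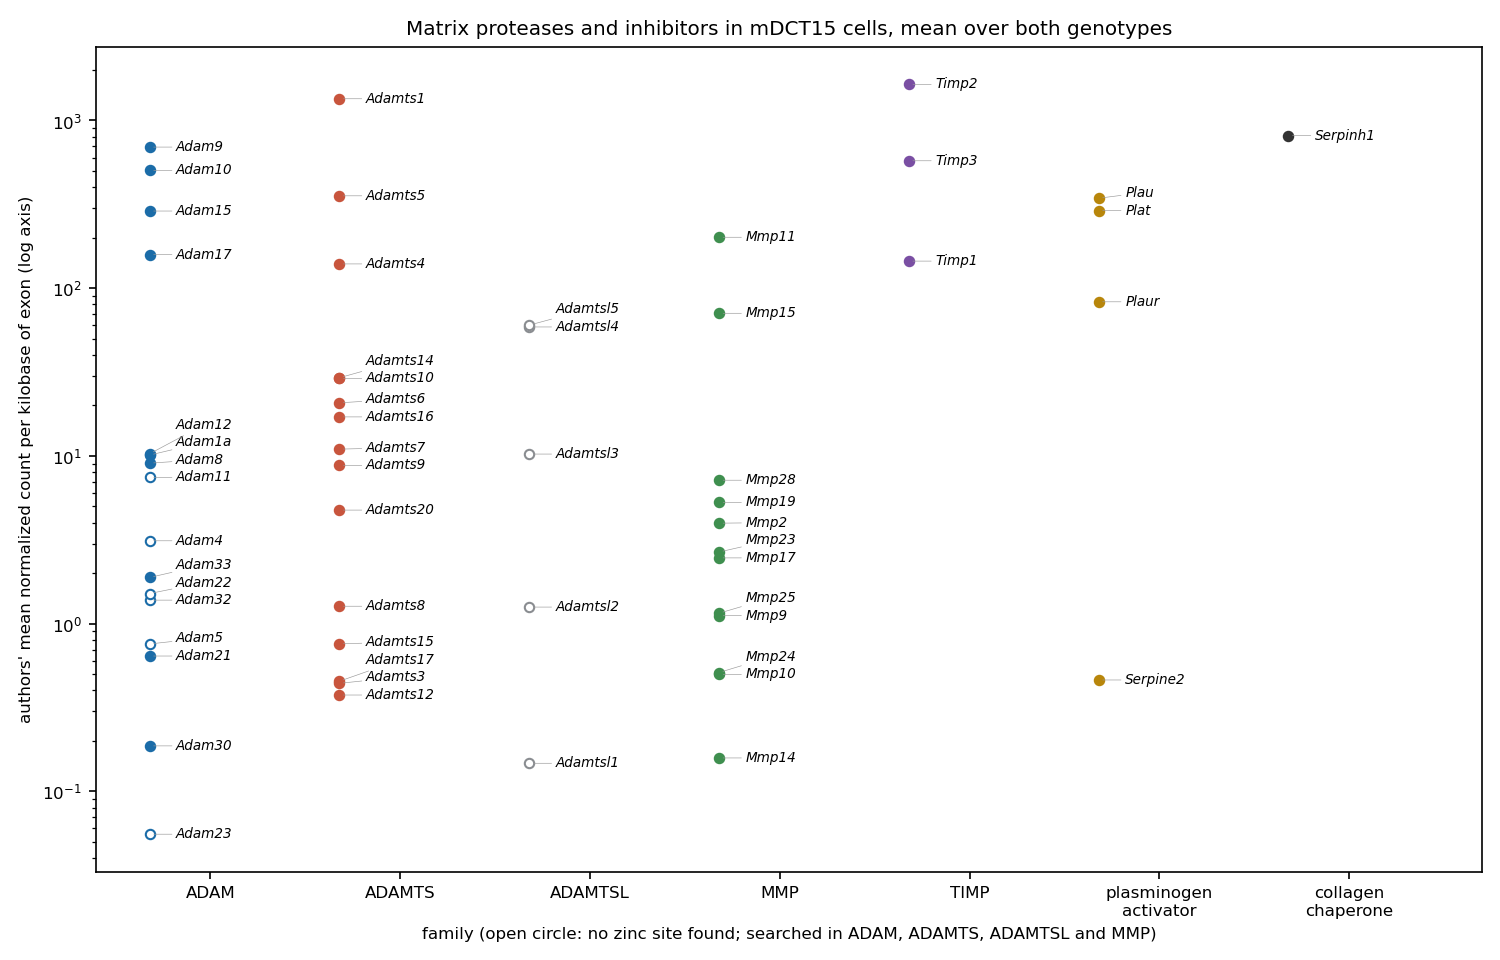
Authors' mean normalized count per kilobase of exon (log axis) of the members, by family, with 1 of the 57 not drawn; each point is a gene and a mean over both genotypes, with no error available, and open circles mark genes without a zinc site among the ADAM, ADAMTS, ADAMTSL and MMP members. *Timp2* (1639) and *Adamts1* (1347) stand highest, *Adam12* (10.3) lies below *Adam9*, *Adam10*, *Adam15* and *Adam17*, and *Mmp14* (0.158) is the lowest MMP.

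*Adamts1*, *Adamts4* and *Adamts5*, which cut aggrecan and versican, had the highest levels of the ADAMTS family. *Adamts1* had the highest mean of all members, 7374, and a level of 1347 per kilobase, at percentile 98.3. *Adamts5* had a mean of 3883 and 355 per kilobase, and *Adamts4* a mean of 899.7 and 139.5 per kilobase. *Adamts1* and *Adamts5* together held 86.6% of the level of the 15 ADAMTS members. The ratio of *Adamts1* to *Adamts5* was 3.79, and 1.81 with coding length. They are neighbours on the minus strand of chromosome 16, with 53051 bases between them. Other neighbours were low or unlike. *Adamts8* and *Adamts15*, which are 19945 bases apart on chromosome 9 and encode further proteoglycanases, had means of 5.99 and 7.93. *Adam9* and *Adam32* on chromosome 8 are 780 bases apart, and their means were 3019 and 4.52.

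The other ADAMTS members were counted far less. *Adamts14*, which removes the amino-terminal propeptide of fibrillar procollagens, had a mean of 170.3 and a level of 29.2 per kilobase, whereas *Adamts3*, of the same role, had a mean of 4.81. *Adamts10* and *Adamts6*, which act on fibrillin microfibrils, had means of 381 and 161 and levels of 29.0 and 20.7 per kilobase. With coding length *Adamts10* (114.9 per kilobase) was above *Adamts14* (46.9). *Adamts16* had a mean of 117 and *Adamts9*, another proteoglycanase, one of 132, with levels of 17.1 and 8.77 per kilobase. *Adamts12* was lowest, with a mean of 4.09. A mean under 10 was found for 5 of the 15 ADAMTS members. The annotated genes *Adamts2*, *Adamts13*, *Adamts18* and *Adamts19* had no row among those analysed.

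The ADAMTSL proteins share the outer domains of the ADAMTS enzymes and lack the protease domain. *Adamtsl5* and *Adamtsl4*, which bind fibrillin microfibrils, had means of 387 and 309.6 and levels of 60.2 and 58.7 per kilobase. With coding length *Adamtsl5* was 2.63 times *Adamtsl4*. *Adamtsl3* had a mean of 86.6, *Adamtsl2* one of 11.1 and *Adamtsl1* one of 2.22.

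The MMP family was low beside the other enzymes. Only *Mmp11* and *Mmp15* of its 12 members had a mean of at least 100, and they held 91.6% of the family's level. *Mmp11*, stromelysin-3, which is activated inside the cell by furin, had a mean of 709 and 201 per kilobase. *Mmp15*, a membrane-bound MMP, had a mean of 382 and 70.8 per kilobase. *Mmp28* followed with a mean of 53.6. The gelatinases *Mmp2* and *Mmp9*, named after their values were seen, had means of 14.0 and 4.13. *Mmp14*, the membrane-bound MMP that activates pro-MMP2, had a mean of 0.974 and the lowest level of the family, 0.158 per kilobase. Of the exon bases of *Mmp2*, 24.3% lie within exons of a gene on the other strand.

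GENCODE places 10 MMP genes, with the collagenases and stromelysins among them, between bases 7272514 and 7699587 of chromosome 9. Only *Mmp10* of these had a row among those analysed, with a mean of 0.857. The conserved cysteine switch of the propeptide was searched for as the residues proline, arginine, cysteine and glycine followed by any residue and a proline. This strict pattern was found in 6 of the 12 MMP members and in 0 of the others, beside 0.0879% of all coding sequences. A switch that departs from the pattern is not matched, and no wider form was searched for. MMP members without a match may therefore still hold a switch. The convertase site was searched for as an arginine followed by any residue, lysine or arginine, and arginine. A match was found in 13 ADAM, 14 ADAMTS, 2 ADAMTSL and 9 MMP members, in 41 of all 57, beside 24.1% of all coding sequences. The match could lie anywhere in the protein and need not be a site that is cut. Protein length was not taken into account, and a longer protein has more places for a match.

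The TIMP inhibitors were all well counted. *Timp2* had a mean of 7314 and a level of 1639 per kilobase, the highest of the 57 members and at percentile 98.7. *Timp3*, which binds to the matrix and inhibits ADAM17 and the aggrecanases, had a mean of 4684 and 575 per kilobase. *Timp1* had a mean of 284 and 145 per kilobase, so that *Timp2* was 11.3 times *Timp1* per kilobase, or 24.0 times with coding length and 6.44 times with the canonical transcript. The summed level of the 3 TIMP genes was 7.94 times that of the 12 MMP genes. This ratio depends on how length is counted and was 24.2 with coding length. It covers only the MMP family, the lowest of the enzyme families that TIMPs bind. The summed level was 2359 per kilobase for the TIMP genes and 297 for the MMP genes. For the ADAM and ADAMTS members it was 1692 and 1966, so the ratio does not hold for all targets of the inhibitors. *Timp4* had no row among those analysed. Part of *Timp3* (21.3% of its exon bases) lies within exons of *Syn3* on the other strand. A share of this kind above 10% was also found for *Adam15* (19.1%), *Adam22* (31.1%), *Mmp19* (36.8%), *Plau* (15.1%), *Mmp28* (12.9%), *Adamts9* (12.2%), *Adamts8* (11.6%) and *Mmp24* (10.3%), and *Adam1a* shared 22.1% with a gene on its own strand. The part that reads of these partners play in the means was not tested.

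Both plasminogen activators were well counted. *Plau* had a mean of 882 and 344 per kilobase, and *Plat* a mean of 2021 and 289.9 per kilobase. Their order turned with length, since *Plat* was the higher with the longest transcript, the canonical transcript or the coding length. *Plaur*, the receptor that holds urokinase at the cell surface, had a mean of 332 and 82.9 per kilobase. *Serpine2*, protease nexin-1, had a mean of 5.68 and 0.461 per kilobase. With coding length its level was 4.61 per kilobase, beside 679 for *Plau* and 1121 for *Plat*. The serine site of these proteases (the residues glycine, aspartate, serine, glycine, glycine and proline) was found in *Plau* and *Plat* and in no other member, beside 0.546% of all coding sequences. *Serpinh1*, a serpin that inhibits no protease and assists the folding of procollagen, had a mean of 5701 and 813 per kilobase, at percentile 96.5.

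Other genes of matrix turnover were described from lists that were chosen with earlier results of these data known. Beside the counts of these lists, 50.3% of all genes and 72.9% of the protein-coding genes in the table had a mean of at least 100. Of 14 activators and convertases, 12 had a row and 4 a mean of at least 100. These were the procollagen proteinase enhancer *Pcolce* (862 per kilobase), the convertase *Furin* (217), the procollagen C-proteinase *Bmp1* (204) and the convertase *Pcsk7* (90.1). *Plg*, which encodes plasminogen, had a mean of 1.26. Of 11 receptors and surface partners, 10 had a row and each of these had a mean of at least 100. The highest per kilobase were the MMP inducer *Bsg* (2642), *Anxa2* (1670.4), the endocytic receptor *Lrp2* (528) and *S100a10* (399.7), of which *Anxa2* and *S100a10* form a plasminogen-binding complex. Of 9 partners of ADAM10 and ADAM17, 8 had a row and each of these had a mean of at least 100, with *Frmd8* (151 per kilobase) and the tetraspanin *Tspan5* (135) highest, followed by the iRhom genes *Rhbdf1* (109.7) and *Rhbdf2* (107).

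Among 12 other inhibitors, 6 had a row and 4 a mean of at least 100. *Cst3*, an inhibitor of cysteine proteases, had a level of 616 per kilobase. The Kunitz inhibitors *Spint2* and *Spint1* had levels of 188 and 183, and *Reck*, a membrane-bound MMP inhibitor, 34.7. Of 13 other listed enzymes, which are matrix-degrading enzymes and peptidases such as *Ece1* and *Mme*, 11 had a row and 7 a mean of at least 100. The highest were the serine protease *Htra1* (773 per kilobase), the cathepsins *Ctsl* (577) and *Ctsb* (490.3) and the peptidase *Ece1* (391). *Fap* had a mean of 0.827. Of 11 matrix genes that are substrates or substrate processors, 10 had a row and 5 a mean of at least 100. *Fn1* (fibronectin, 1663 per kilobase) and *Col5a1* (323) led, with the proteoglycan gene *Vcan* at 47.3, *Col1a1* at 30.5 and *Bcan* at a mean of 0.778. Of 14 shed substrates, 10 had a row and 3 a mean of at least 100, which were *App* (627 per kilobase), *Hbegf* (132) and *Notch1* (123). *Tgfa* followed at 13.0. Among these substrates *Tnf*, *Igfbp3*, *Ereg* and *Cdh1* had no row among those analysed, and *Igfbp5* had a mean of 10.2.

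**Figure D3:**
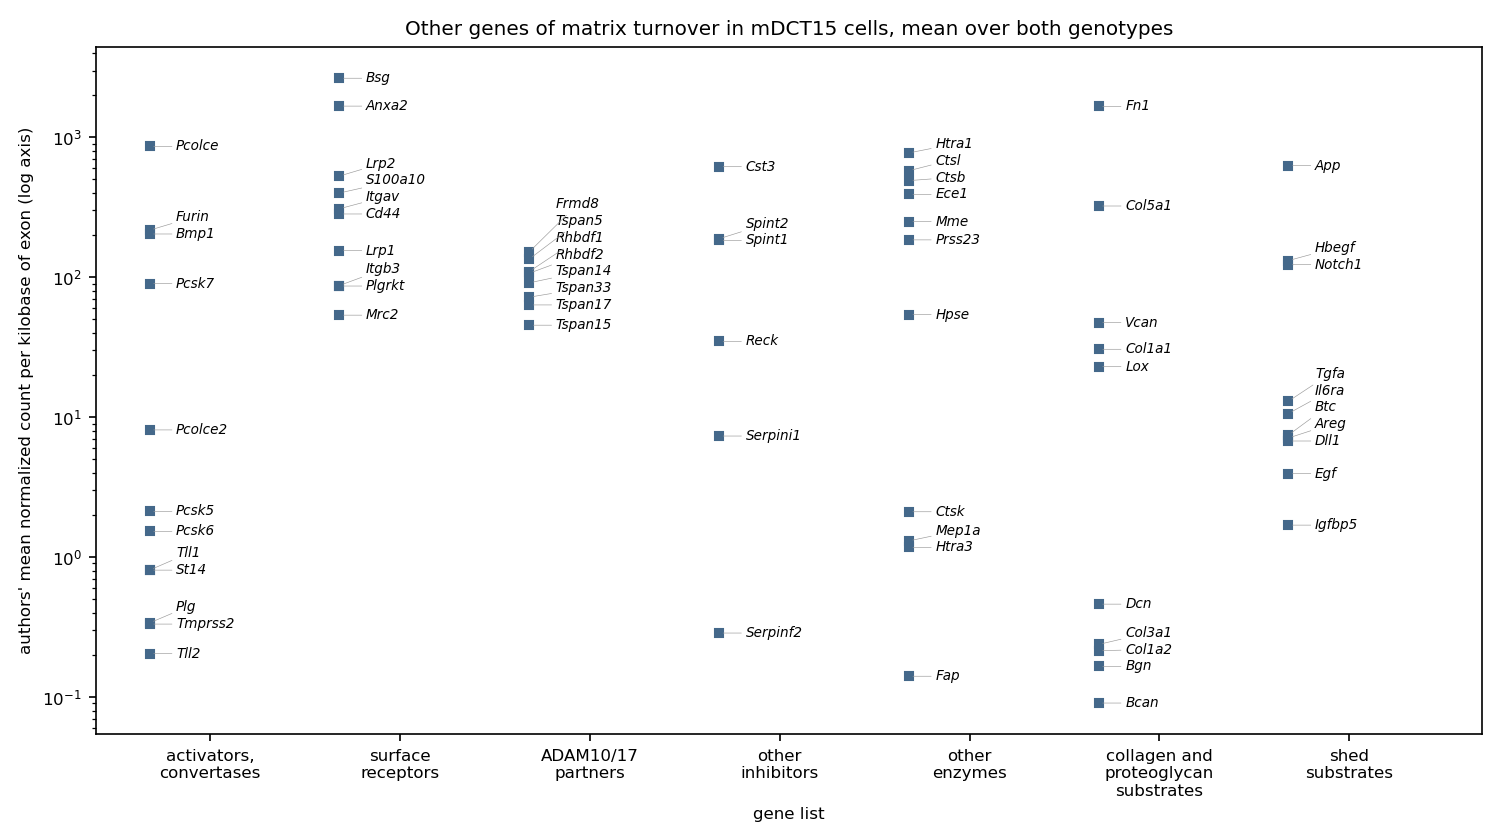
Authors' mean normalized count per kilobase of exon (log axis) of other genes of matrix turnover that have a row, by list; each square is a gene and a mean over both genotypes, with no error available. The partners of ADAM10 and ADAM17 lie close together, from 45.4 (*Tspan15*) to 151 (*Frmd8*), while the activators run from 0.204 (*Tll2*) to 862 (*Pcolce*).

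Listed markers of cell types were set beside the labelled cell type, and their means do not settle the identity of the cells. Of 6 listed markers of the distal convoluted tubule, 3 had a row, and of these *Wnk1* had a mean of 8468, *Trpm6* one of 29.6 and *Klhl3* one of 5.70. *Wnk1* alone of the 6 had a mean of at least 100. Its count takes all transcripts of the gene together, so it does not mark this segment by itself. The defining cotransporter gene *Slc12a3* had no row among those analysed, nor had *Pvalb* and *Calb1*. Of 3 proximal tubule markers, *Lrp2* had a mean of 8826, *Cubn* one of 169 and *Slc34a1* one of 2.04. Of 3 principal cell markers, *Scnn1a* had a mean of 54.1 and *Aqp3* one of 1.95, and none of the 3 intercalated cell markers had a row. Of 4 epithelial markers, *Epcam* had a mean of 115 and *Krt8* one of 0.980, and *Cdh1* and *Krt18* had no row. Of 4 fibroblast markers, 3 had a mean under 10, with *Col1a1* at 201. The immune markers *Cd68* and *Ptprc* had means of 41.9 and 5.36, and the endothelial marker *Pecam1* one of 4.68. The targeted gene *Pkd1* had a mean of 3175 over both genotypes, which says nothing of the editing.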

How the data were processed

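RNA of 3 *Pkd1*-/- and 3 wild type mDCT15 samples was sequenced. According to the labels and the study's methods, reads were trimmed with Trim Galore 0.4.5, mapped to GRCm39 (Ensembl annotation) with STAR 2.7.5a and counted per gene with HTSeq 0.11.0. The values used are the authors' deposited mean normalized counts, a signal that is the mean over all samples after division by library size factors made with DESeq2 1.22.0 in R 3.5.3. The fold changes, standard errors, statistics and p-values in the same table are the authors' comparison of the genotypes and were not used, so the planned test of the genotypes was not run. The methods state that genes needed 5 or more counts in each sample, but 5385 genes in the table have a mean under 5, and the lowest mean is 0.618. The sum of the means is 16746088.

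The members and lists were chosen with earlier results of these data known. Where a symbol was repeated the row with the higher mean was to be kept, which no member needed. HTSeq was run with default settings, and whether its strand setting matched the library kit was not tested. Gene models came from GENCODE release M39 on GRCm39, a later release than the one used for counting, in which 20118 (97.5%) of the identifiers were found. Merged exons give long lengths where many transcripts are annotated, which lowers a level per kilobase. Motifs were searched in translated canonical transcripts, since no protein table was used here. Named genes were *Adam12*, the members with a mean of at least 100 (at most the 8 highest per kilobase in a family), the highest and lowest of each family, the whole of the smaller families, and from each list the 4 highest per kilobase and those with a mean under 1. The values of 1 member are not reported here. Other genes were chosen after their values were seen. The level per kilobase, the percentile and the search for the zinc site were tested on simulated data with known answers. The merging of exons and the other motifs were not tested in this way. Python 3.11.15, numpy 2.4.6, pandas 2.3.3 and matplotlib 3.10.9 were used.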

Additional observations from a re-analysis of the deposited data

How the results depend on the processing

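No paired analysis was possible because the table analysed holds 1 mean over all samples and no values of single samples. Leaving out a replicate and the planned test of the genotypes, with the replicate number as a block, could not be run for the same reason. The count of 25 members with a mean of at least 100 was 29 with a limit of 50 and 20 with a limit of 200. Adding repeated symbols could not change it, because no member symbol was repeated. The length used mattered more. The summed TIMP level over the summed MMP level was 24.2 with coding length, against 7.94 with merged exons and 7.77 with the canonical transcript, a length chosen after seeing the data. *Adam9* was 1.38 times *Adam10* with merged exons and 0.933 times with coding length. *Plau* was 1.19 times *Plat* with merged exons, and 0.717, 0.606 and 0.482 times with the longest transcript, coding length and the canonical transcript. The share of the family's level held by *Adam9*, *Adamts1*, *Mmp11* and *Timp2* stayed within a factor of 1.5 with each length tried. No depth or replicate spread is known, so differences between low means cannot be judged.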
